A study of Mus musculus with 9 samples.

Results

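Blinc1 knockout pancreas was compared with Blinc1 heterozygote pancreas in mouse embryos at E15.5 (days after conception). The comparison took the 3 libraries titled as knockouts (Blinc1-/-) and the 3 titled as heterozygotes (Blinc1+/-), which are 6 of the 9 libraries of the study. The other 3 are wild type (Blinc1+/+). In the tests they served only to estimate the spread, and their levels are given beside some genes. All embryos had a mixed background of C57BL/6 and 129Sv, and RNA came from the whole dissected pancreas. Both groups carry at least 1 mutant allele, so the comparison asks what the loss of the remaining allele adds. How the mutation was made is not given in the sources used here, nor whether replicates were separate embryos or litters, so the tests measure only the spread between these samples. Genes were kept when they reached 1 FPKM (fragments scaled to transcript length and to mapped depth) in at least 3 of the 6 libraries, which left 13052 genes of 23235 symbols.

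Blinc1 is a long noncoding RNA gene of islet cells that lies beside Nkx2-2. Nkx2-2 encodes a homeodomain factor that endocrine progenitors need to become beta cells and that helps set the balance between the islet hormones. At this stage of development the pancreas is mostly growing acinar tissue, with a trunk epithelium that gives rise to duct and to Neurog3-positive endocrine progenitors, and with mesenchyme, vessels, nerves and blood around it. Long noncoding RNAs beside a regulatory gene can act on that neighbour or on genes elsewhere, which is the question a knockout of this kind is made to address.

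The targeted locus gave no check of the genotype labels, and some genes, singled out with their values known, did not separate by them. At Nkx2-2, Ins1, Sst and Pla2g1b, described below, the library labelled knockout 1 was nearer to heterozygotes 2 and 3, and the library labelled heterozygote 1 was nearer to knockouts 2 and 3. Whether these 2 libraries carry the right labels was not tested, and every knockout minus heterozygote difference below follows the labels as given. No gene named Blinc1 was analysed here. The noncoding RNA Nkx2-2as, which overlaps Nkx2-2 (mm9 chromosome 2, 147009819 to 147157417), was at 0.0577 FPKM or less in all 6 libraries, and AI646519 was listed at 0. The implied depth was 19532984 to 25437255 fragments per library. Markers of pancreas (Cpa1 for acinar cells, Sox9 for trunk, Chga for endocrine cells, Tcf21 for mesenchyme and Pecam1 for vessels) were above 10 FPKM in every library. By Xist, the RNA that silences an X chromosome in females, and by the Y-linked gene Ddx3y, all 3 knockout libraries and heterozygote 3 were from female embryos, and heterozygotes 1 and 2 were from males. Sex and genotype therefore overlap in this comparison.

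The 6 libraries did not fall into their labelled groups. Across all tested genes, pairs of libraries of 1 group had 66 to 221 genes that differed by 1 or more on the log2(FPKM + 1) scale (6 pairs, median 137). Pairs across the groups had 61 to 239 such genes (9 pairs, median 104). Heterozygote 1 was 239 genes from knockout 2 and 152 from knockout 3, against 204 and 113 from heterozygotes 2 and 3. Its nearness to those knockouts at the genes named above was thus not seen over all genes. Knockout 1 was 167 and 61 genes from heterozygotes 2 and 3, against 221 and 161 from knockouts 2 and 3. By this count the closest pair was knockout 1 with heterozygote 3, with 61 genes, and the next was knockout 1 with heterozygote 1, with 65. By Spearman correlation over genes the closest pair was knockout 3 with heterozygote 2 (0.9911), and the next was knockout 2 with knockout 3 (0.9907). Knockouts 2 and 3 were close to each other, with 66 genes, but knockouts 1 and 2 were 221 genes apart. On the first principal component, which held 40.8% of the variance, knockout 1 and heterozygote 1 stood at one end (-16.2 and -15.8) with heterozygote 3 at -7.83. Knockout 2 (20.1), knockout 3 (9.96) and heterozygote 2 (9.69) stood on the other side. Results that rest on knockout 1 or heterozygote 1 are given below with and without these libraries, which were picked with their Nkx2-2 level known.

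**Figure D1:**
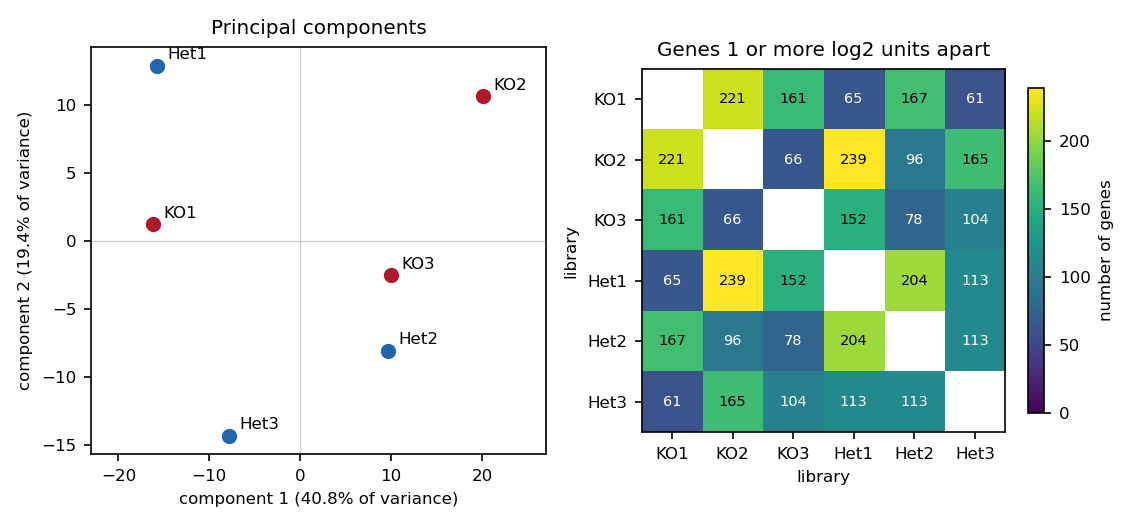
The left panel plots each knockout (KO, red) and heterozygote (Het, blue) library on the first 2 principal components of log2(FPKM + 1) over the 13052 tested genes, and the right panel gives the number of genes that differ by 1 or more log2 units between each pair of libraries. Knockout 1 lies beside heterozygote 1 on component 1, and its smallest count, 61 genes, is with heterozygote 3.

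Of the 13052 genes, limma called 0 higher and 0 lower in knockouts (0%; adjusted p under 0.05, smallest adjusted p = 0.9998). Under an unadjusted p of 0.05 there were 285 genes (2.18%), 162 higher (1.24%) and 123 lower (0.942%) in knockouts. If no gene differed, a share of 0.05 would be under this threshold on average, so the count was below that level. limma's voom on the implied fragments also called 0 genes, with 272 under an unadjusted p of 0.05. In 767 genes (5.88%) the 3 knockout values all lay beyond the 3 heterozygote values, with knockouts higher in 457 (3.5%) and lower in 310 (2.38%). A difference of 1 or more on the log2 scale was seen at 26 genes (0.199%), 16 higher and 10 lower, and of 0.5 or more at 108 (0.827%). In 5837 genes (44.7%) the knockout mean was higher and in 7215 (55.3%) it was lower. Here and in the counts below, a higher or lower mean is that of log2(FPKM + 1), which can differ in sign from the mean FPKM where 1 library is very low. The median difference over all genes was -0.01, and the median standard error (SE) of a gene's difference was 0.09 (interquartile range 0.07 to 0.13). For a single gene, exact permutation of 3 against 3 libraries gives p = 0.1 at the least. If no gene differed, a share of 0.1 would have groups without overlap on average, and the 5.88% seen was below that too. With sex as a covariate 0 genes were called, with 349 under an unadjusted p of 0.05. The female libraries alone hold a single heterozygote, so that fit is used below only for the size and direction of differences.

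**Figure D2:**
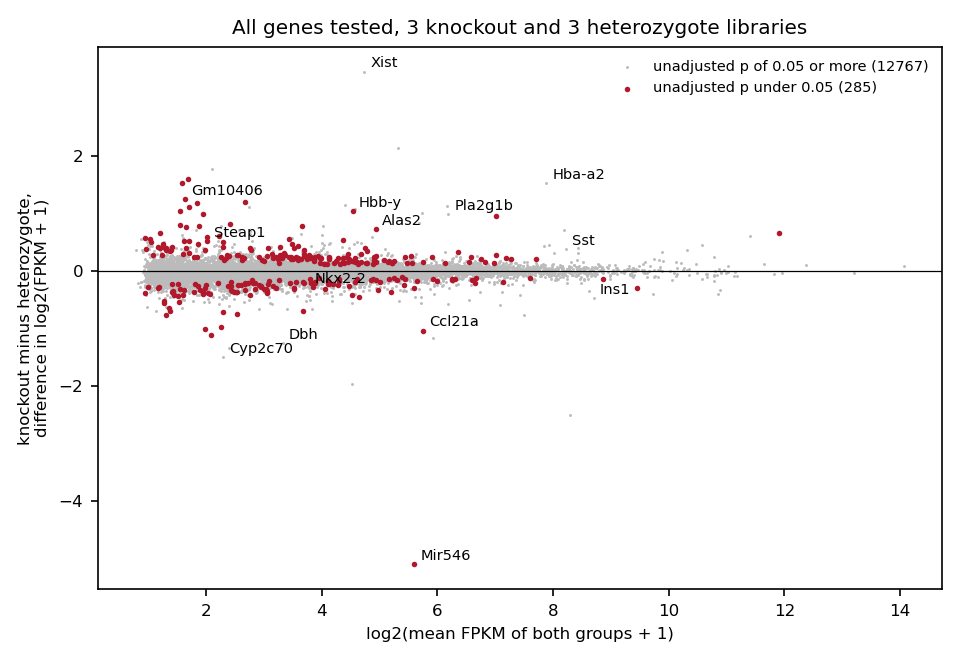
Each point is 1 of the 13052 tested genes, with its mean level on the horizontal axis, as log2(mean FPKM of both groups + 1), and its knockout minus heterozygote difference in log2(FPKM + 1) on the vertical axis. The 285 genes under an unadjusted p of 0.05 are red, and the points crowd around 0 on both sides, with 26 genes at 1 or more log2 units.

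Among the 6 genes with the smallest p and a higher level in knockouts, differences ran from 0.24 to 0.56 on the log2 scale. Steap1, which encodes a metalloreductase of the cell membrane (mm9 chromosome 5, 5736322 to 5749317), was at 3.40, 3.93 and 4.00 FPKM in knockouts 1, 2 and 3 and at 2.45, 2.25 and 2.28 in heterozygotes 1, 2 and 3. All knockout values lay above all heterozygote values, from 50 to 105 implied fragments per library, and the difference was 0.52 on the log2 scale (SE 0.09), with a limma adjusted p of 0.9998. Eapp, encoding a phosphoprotein that binds E2F factors, was at 31.2, 30.9 and 31.9 FPKM in knockouts and at 25.6, 27.6 and 26.2 in heterozygotes (log2 difference 0.24, SE 0.05). March2, encoding a membrane-bound ubiquitin ligase, was at 26.4, 28.4 and 26.7 against 23.6, 20.4 and 22.1 FPKM. These groups did not overlap either, and the knockout libraries were close to each other at both genes. Il17re, a cytokine receptor gene, had group means of 2.81 ± 0.280 and 1.66 ± 0.223 FPKM (SD, n = 3 each). Selenbp2, a selenium-binding protein gene, had 8.48 ± 0.778 and 6.22 ± 0.577, and the noncoding RNA Gm11240 had 1.43 ± 0.178 and 0.649 ± 0.0596 from at most 21.0 implied fragments. Leaving out any 1 of the 6 libraries, or taking females only, kept the Steap1 difference between 0.49 and 0.58.

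Lower in knockouts by the same ranking was Gm7367, a predicted gene, at 44.1, 40.3 and 42.6 FPKM against 54.7, 50.2 and 51.9 (log2 difference -0.30, SE 0.05). Rps4x, the X-linked gene of a ribosomal protein, was at 600, 631 and 636 FPKM in knockouts and at 777, 742 and 787 in heterozygotes. Its difference was -0.30 (SE 0.07), and the female heterozygote 3 was as high as the male heterozygotes. Ribosomal protein genes have many near-identical copies, so how reads were shared among copies could move this value. Trim12a, a tripartite motif gene, was at 1.28, 1.76 and 1.70 FPKM against 4.46, 2.64 and 5.89 (log2 difference -1.004, SE 0.23). The lowest heterozygote still lay above the highest knockout at this gene. Ccl21a, a chemokine of lymphatic vessels and lymphoid tissue whose 2 loci were summed, was at 46.6, 32.6 and 24.3 FPKM against 77.5, 50.9 and 84.3, from 15.2 to 52.8 implied fragments (-1.03, SE 0.24). Clec2l, a lectin gene, had means of 1.43 ± 0.0874 and 2.29 ± 0.261 FPKM. Mir546 had the largest difference of all tested genes, but it rests on at most 1.77 implied fragments in any library and gives no interpretable fold.

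Among genes higher in knockouts without overlap, the largest differences (mean of 2 FPKM or more in the higher group) were led by predicted genes. Of these, Gm10406 and Gm2897 lie on chromosome 14. Gm10406 (mm9 chromosome 14, 7838629 to 7859963) was at 1.01, 4.55 and 4.90 FPKM in knockouts and at 0.716, 0.602 and 0.818 in heterozygotes (log2 difference 1.24, SE 0.37). Gm8348 was at 1.31, 5.17 and 5.83 against 1.13, 1.01 and 0.940, and Gm2897 at 1.33, 4.60 and 4.78 against 0.967, 1.10 and 0.846. In all of these knockouts 2 and 3 were far above the rest, and knockout 1 was only just above the heterozygotes. Gm3383, a related name singled out with its values in view, was at 1.86, 10.6 and 12.8 FPKM in knockouts and at 2.37, 2.40 and 2.32 in heterozygotes, so that knockout 1 lay below every heterozygote. In wild type it was at 13.3, 11.4 and 15.7. Gm8348 and Gm3383 are listed at several loci each, and reads of such near-identical genes can be split among copies, so single members are uncertain. Without knockout 1, limma called these 4 genes higher in knockouts and no other gene, at an adjusted p of 0.0256 for Gm10406, 0.0267 for Gm2897, 0.0021 for Gm3383 and 0.018 for Gm8348. Their differences then were 1.53 to 1.91, and the count under an unadjusted p of 0.05 was 1182. Knockout 1 lay away from the other knockouts at each of these genes, so leaving it out largely fixed these calls and is no test.

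Clec3b, encoding the secreted lectin tetranectin, was at 2.37, 8.65 and 1.93 FPKM in knockouts and at 1.33, 1.91 and 0.816 in heterozygotes. Most of its difference of 0.98 (SE 0.43) came from knockout 2. Gbp1, an interferon-induced GTPase gene, was at 1.66, 0.0439 and 1.03 FPKM in knockouts and at 2.10, 1.93 and 2.03 in heterozygotes, with 3 implied fragments in knockout 2. D330023K18Rik was at 3.47, 1.77 and 2.98 against 4.91, 5.71 and 4.48 FPKM (-0.71, SE 0.19).

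Some genes were called only in fits that left out particular libraries. Cyp2c70, a cytochrome P450 gene of bile acid metabolism (mm9 chromosome 19, 40227851 to 40261776), was at 0.895, 1.06 and 0.669 FPKM in knockouts and at 0.159, 9.41 and 11.1 in heterozygotes. Heterozygote 1, from 5 implied fragments, was lower than any knockout, whereas heterozygotes 2 and 3 matched the wild types at 8.42 to 12.2 FPKM. The difference was -1.49 (SE 0.73) with all libraries and -2.59 (SE 0.16, limma adjusted p = 0.0015) without heterozygote 1. Rps19, a ribosomal protein gene also singled out with its values in view (chromosome 7, 25669733 to 25674821), was at 160, 151 and 173 FPKM in knockouts and at 55.7, 173 and 57.1 in heterozygotes. It was low in heterozygotes 1 and 3 only, and wild types were at 169 to 181 FPKM. Its difference was 0.96 (SE 0.35) with all libraries and 1.49 (SE 0.07, limma adjusted p = 0.000128) without heterozygote 2. Its counting shares the limit named for Rps4x. At Cyp2c70 and Rps19 the library left out lay away from the rest of its group, so leaving it out largely fixed the outcome and is no test.

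**Figure D3:**
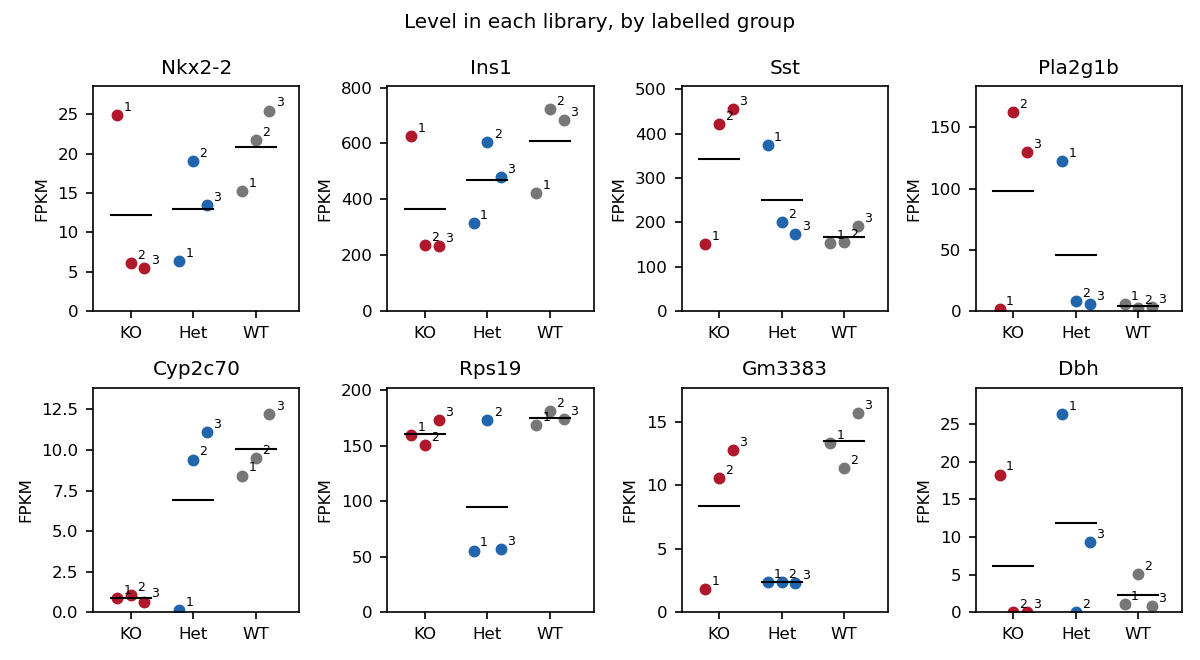
FPKM of 8 genes in each library by labelled group (KO, Het and WT for wild type), with the replicate number beside each point and a bar at the group mean. Knockout 1 and heterozygote 1 lie away from the rest of their groups at Nkx2-2, Ins1, Sst and Pla2g1b. Heterozygote 2 does so at Rps19, heterozygote 1 at Cyp2c70 and knockout 1 at Gm3383.

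Nkx2-2 itself (chromosome 2, 147003282 to 147012138) was at 24.9, 6.08 and 5.48 FPKM in knockouts and at 6.37, 18.99 and 13.4 in heterozygotes, with wild types at 15.2 to 25.5. Knockout 1 held the highest value of the 6 and heterozygote 1 was near knockouts 2 and 3, so the groups overlapped fully. The difference was -0.28 (SE 0.53, limma adjusted p = 0.9998). It was -0.93 without knockout 1, 0.01 without knockout 2, 0.07 without knockout 3, -0.68 without heterozygote 1 and -1.33 without both knockout 1 and heterozygote 1.

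Among hormone genes, 7 of 13 tested had a higher mean in knockouts and 6 a lower one, with 0 called, 0 under an unadjusted p of 0.05 and a median difference of 0.01. Ins1, an insulin gene, was at 627, 235 and 233 FPKM in knockouts and at 315, 606 and 481 in heterozygotes (log2 difference -0.47, SE 0.40). Ins2 was at 2524, 1390 and 1191 against 1463, 2514 and 2276 (-0.33, SE 0.30). Both were highest in knockout 1 among the knockouts and lowest in heterozygote 1 among the heterozygotes, as Nkx2-2 was. Sst, the hormone gene of delta cells, showed the reverse order, at 151, 422 and 455 FPKM against 375, 201 and 174 (0.38, SE 0.41). Ppy, the hormone gene of PP cells, was at 21.0, 63.3 and 65.1 against 43.1, 43.3 and 31.6, and Ghrl, the hormone gene of epsilon cells, was at 176, 91.6 and 78.4 against 77.0, 127 and 114. Gcg, encoding glucagon, was at 905, 822 and 712 against 604, 891 and 704 (0.16, SE 0.15). Iapp, co-secreted with insulin, was at 425, 305 and 293 against 259, 456 and 395. Without knockout 1 and heterozygote 1, the Sst difference was 1.22 (SE 0.12, limma adjusted p = 0.025), and that of Gcg was -0.049. Both libraries lay away from the rest of their groups at Sst, so leaving them out largely fixed its outcome and is no test.

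Npy and Gast had the smallest p among hormone genes. Npy, a neuropeptide gene active in young beta cells and in nerves, was at 101, 14.7 and 16.0 FPKM in knockouts and at 131, 38.7 and 56.7 in heterozygotes (-1.16, SE 0.70). Gast, the gastrin gene, was at 19.9, 34.6 and 25.5 against 21.3, 17.7 and 17.0 (0.46, SE 0.22). The groups overlapped at both genes.

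Islet transcription factors divided evenly, with 15 of 31 tested genes higher and 16 lower in knockouts, 0 called and a median difference of 0.00. Neurog3, the switch into the endocrine lineage, was at 68.6, 41.3 and 44.4 FPKM in knockouts and at 48.3, 65.3 and 60.6 in heterozygotes (-0.20, SE 0.20). Pax6 was at 11.2, 7.59 and 7.91 against 9.003, 12.2 and 8.58, and Neurod1 at 9.99, 7.28 and 6.598 against 6.54, 11.03 and 8.44. Each of these factors of early endocrine cells was highest in knockout 1 among knockouts and in heterozygote 2 among heterozygotes. Nkx6-2, a homeodomain factor related to Nkx6-1, had the widest spread of the list, at 1.87, 33.7 and 37.5 FPKM against 40.1, 12.3 and 9.66 (-0.20, SE 0.97). Pdx1 (35.8 ± 1.67 and 35.6 ± 4.11 FPKM, SD, n = 3 each), Nkx6-1 (21.7 ± 1.93 and 21.9 ± 1.98) and Sox9 (26.0 ± 0.311 and 26.0 ± 2.97), which act in the multipotent and trunk epithelium, had near-equal means. The intervals of their differences were -0.20 to 0.22, -0.25 to 0.23 and -0.17 to 0.18 (95%, log2 scale). Hnf4a and Hhex had the smallest p, at differences of 0.17 (SE 0.10) and 0.18 (SE 0.10).

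Beta cell genes had lower means at 12 of 17 and higher at 5 (median -0.13). Endocrine progenitor genes had 20 lower and 4 higher of 24 (median -0.09), and secretory granule genes 20 lower and 5 higher of 25 (median -0.10). Over all tested genes 55.3% had a lower mean in knockouts, with a median of -0.01, and 0 members of these lists were called. Chga, the granin of endocrine granules, was at 104, 62.3 and 51.5 FPKM in knockouts and at 60.7, 109 and 84.9 in heterozygotes (-0.25, SE 0.27). Chgb was at 71.6, 27.7 and 19.3 against 29.8, 50.7 and 51.9, and Pam, which amidates peptide hormones, at 42.8, 30.8 and 30.2 against 38.6, 35.0 and 38.3. The mean level of the granule list, set against the mean of the 6 libraries, was 0.44 in knockout 1 and -0.24 and -0.38 in knockouts 2 and 3, with 0.10, 0.06 and 0.02 in heterozygotes. Knockout 1 was thus above every heterozygote and the other knockouts below. Beta cell genes gave 0.37, -0.26 and -0.34 against -0.02, 0.20 and 0.05. Without knockout 3, 16 of 25 granule genes and 10 of 17 beta cell genes had a higher mean in knockouts, and without knockout 1 the counts were 2 and 3. In the progenitor list 13 of 24 had a higher mean without knockout 2. Mfng, a Notch-modifying enzyme gene of progenitors, was at 14.3, 10.4 and 13.3 FPKM against 15.4, 14.6 and 14.6, without overlap (-0.23, SE 0.11).

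Alpha cell genes had a higher mean in knockouts at 9 of 12 (median 0.07), and delta, epsilon and PP cell genes at 10 of 11 (median 0.07), with 0 called. Slc38a5, an amino acid transporter gene of alpha cells, was at 96.6, 87.2 and 83.2 FPKM against 68.3, 87.2 and 75.6 (0.21, SE 0.10). Cd9, a tetraspanin gene, was at 81.2, 70.0 and 77.8 against 70.2, 69.0 and 65.6 (0.16, SE 0.08). Pyy, the most abundant of the second list, had means of 414 ± 51.4 and 415 ± 78.2 FPKM. Without knockout 1 only 4 of 12 alpha cell genes had a higher mean in knockouts.

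Acinar genes had a higher mean in knockouts at 26 of 36 (median 0.08), where 44.7% of all tested genes did, and 0 were called. The list mean was -0.28, 0.47 and -0.02 in knockouts and -0.26, 0.10 and -0.02 in heterozygotes, so that knockout 2 alone stood above the range of the heterozygotes. Without knockout 2, 15 of 36 had a higher mean, and without heterozygote 1, 16 of 36. Ptf1a, the regulator of acinar fate, was at 85.2, 118 and 103 FPKM in knockouts and at 92.2, 101 and 83.9 in heterozygotes (0.13, SE 0.13). Cpa1, a carboxypeptidase, had means of 9415 ± 2099 and 9521 ± 399 FPKM. Reg1, a secreted lectin of acinar cells, was at 283, 552 and 360 against 265, 290 and 322 (0.40, SE 0.21), and the lipase cofactor Clps had means of 17892 ± 5563 and 16381 ± 1410. The enzyme genes Amy2a2, Amy2a5, Ctrb1 and Pnliprp1 had failed estimates and were not tested.

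Pla2g1b, the pancreatic phospholipase A2 gene (chromosome 5, 115916275 to 115924726), varied most among acinar genes. It was at 1.81, 162 and 130 FPKM in knockouts, from 17, 1542 and 977 implied fragments. In heterozygotes it was at 122, 8.29 and 5.66 FPKM, from 922, 75 and 44 fragments. Knockouts 2 and 3 and heterozygote 1 were high, and knockout 1 was the lowest of the 6. The difference was 0.99 (SE 1.53), and it was 4.21 (SE 0.29, limma adjusted p = 0.0035) without knockout 1 and heterozygote 1. Both libraries lay away from the rest of their groups here, so leaving them out largely fixed that outcome and is no test.

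Duct and trunk genes had a higher mean in knockouts at 16 of 19 with small differences (median 0.04) and 0 called. The count was 11 without knockout 3 or with sex as a covariate. Car2, encoding a carbonic anhydrase, was at 5.75, 4.01 and 6.05 FPKM against 3.51, 3.47 and 3.98, without overlap (0.42, SE 0.24). Tspan8, a tetraspanin gene of epithelia, was at 2.12, 2.68 and 1.87 against 1.75, 1.84 and 1.51, also without overlap (0.25, SE 0.13). The keratin gene Krt18 had means of 437 ± 25.5 and 422 ± 40.7 FPKM. Notch pathway genes, which hold progenitors back from differentiating, had a lower mean at 18 of 21 (median -0.05) and 0 called. Jag1, a Notch ligand gene, was at 14.0, 11.7 and 11.3 against 14.0, 13.4 and 13.5 (-0.14, SE 0.08). Hes6, a gene of the Hes family, had means of 50.4 ± 3.89 and 52.7 ± 2.62. Without knockout 2, 12 of the 21 Notch genes had a higher mean in knockouts.

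**Figure D4:**
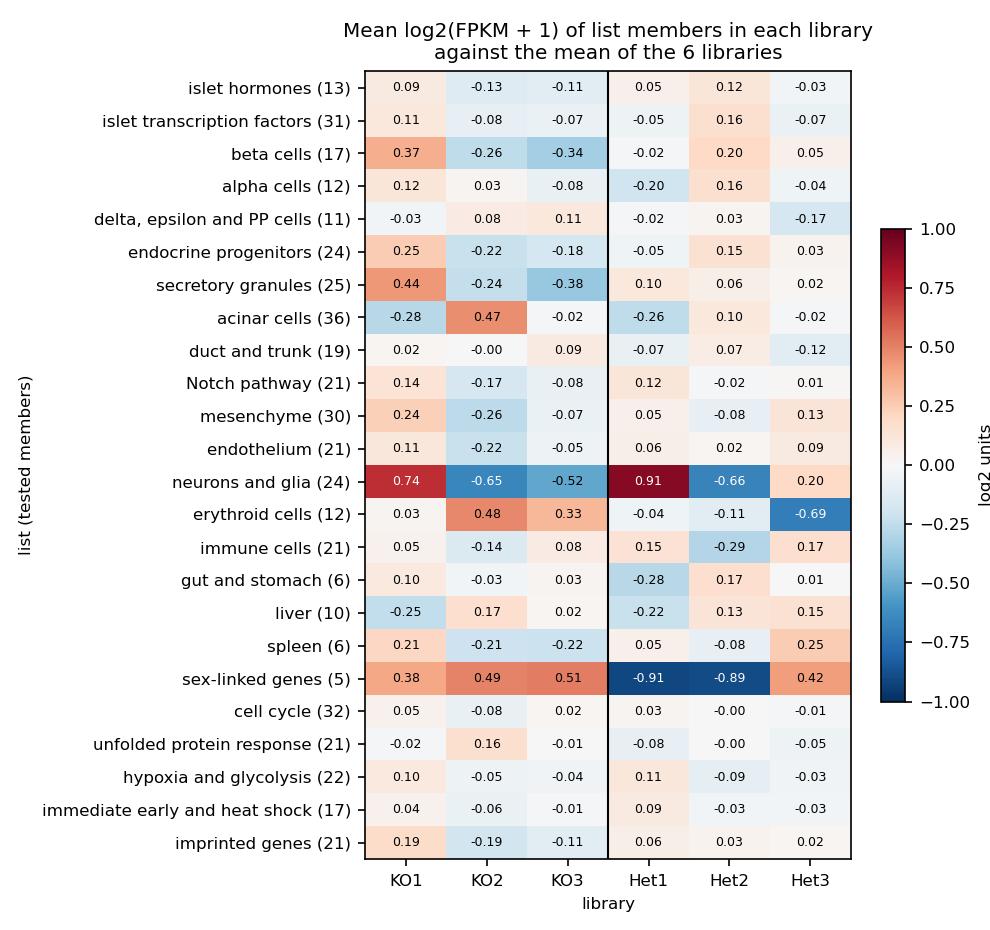
Mean log2(FPKM + 1) of each gene list in each library (columns; KO left of the line, Het right), relative to the mean of the 6 libraries, with the number of tested members beside each list name. Neurons and glia are high in KO1 and Het1 (0.74 and 0.91) and low in KO2, KO3 and Het2, and erythroid cells range from -0.69 in Het3 to 0.48 in KO2.

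Genes of neurons and glia had the widest spread of list means within a group among the 24 lists (SD 0.79 over the 3 libraries of the more variable group), with means of 0.74, -0.65 and -0.52 in knockouts and 0.91, -0.66 and 0.20 in heterozygotes. A lower mean in knockouts was seen at 19 of 24 genes (median -0.25), with 0 called and 0 under an unadjusted p of 0.05. Dbh, the enzyme that makes noradrenaline, was at 18.3, 0.0184 and 0.0926 FPKM in knockouts and at 26.3, 0.0387 and 9.32 in heterozygotes. It rests on 984, 1 and 4 implied fragments in knockouts and on 1135, 2 and 416 in heterozygotes, so it was present in 3 libraries and all but absent in the others, in both groups. Th, the first enzyme of catecholamine synthesis, was at 19.6, 1.52 and 1.85 against 25.3, 1.78 and 6.87, and the neuronal tubulin gene Tubb3 was at 68.9, 14.2 and 14.6 against 88.7, 14.4 and 34.5. Stmn2, a neuronal growth gene, followed at 82.5, 22.7 and 23.1 against 101, 18.3 and 60.9. Knockout 1 and heterozygote 1 were the 2 highest libraries at each of these genes. Sox10, a factor of neural crest glia, varied less, at 7.67, 3.89 and 5.60 FPKM against 7.11, 4.11 and 6.98. Without heterozygote 1, 19 of the 24 genes had a higher mean in knockouts (median 0.10), and without heterozygote 2 the median was -0.69. In whole tissue, fewer cells of a type and less RNA per cell cannot be told apart.

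Mesenchyme genes had a lower mean in knockouts at 23 of 30 (median -0.07) and endothelial genes at 19 of 21 (median -0.08), with 0 called. Tcf21, a factor of pancreatic mesenchyme, was at 20.2, 10.4 and 14.2 FPKM in knockouts and at 18.3, 15.6 and 23.1 in heterozygotes (-0.36, SE 0.22). Flt4, a receptor gene of lymphatic endothelium, was at 4.84, 3.16 and 3.71 against 6.18, 4.42 and 5.36 (-0.37, SE 0.15). It was the 1 endothelial gene of 21 under an unadjusted p of 0.05, against 2.18% of all genes. Tie1 was at 19.4, 14.3 and 17.8 against 21.7, 18.7 and 19.7, and Pecam1 at 43.6, 34.3 and 40.05 against 39.5, 43.1 and 42.4. Knockout 2 held the lowest value at each of these 4 genes. Without it, 20 of 30 mesenchyme genes and 11 of 21 endothelial genes had a higher mean in knockouts. The list mean in knockout 2 was -0.26 for mesenchyme and -0.22 for endothelium, while the acinar list mean in that library was 0.47.

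Immune genes were mixed, with 8 of 21 higher and 13 lower in knockouts, 0 called and a median of -0.10. Cd68, a macrophage gene, was at 7.68, 5.20 and 6.14 FPKM against 8.62, 6.66 and 9.66 (-0.34, SE 0.15), and C1qa, a complement gene of macrophages, at 147, 134 and 146 against 139, 185 and 177 (-0.22, SE 0.11). Lst1, a leukocyte gene, had means of 6.92 ± 0.690 and 6.29 ± 0.742.

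Most erythroid genes had a higher mean in knockouts, and 0 were called. On the log2(FPKM + 1) scale the mean was higher at 11 of 12 tested members (44.7% over all genes), with a median difference of 0.48 (all genes -0.01). A total of 5 were under an unadjusted p of 0.05, against 2.18% of all genes. In 6 of the 12 all knockouts lay above all heterozygotes, against 3.5% of all genes. The erythroid regulators Gata1 and Klf1 were too low to test. Alas2, the X-linked gene of the first enzyme of haem synthesis in red cells, was at 29.5, 47.1 and 34.6 FPKM in knockouts and at 26.5, 15.3 and 24.96 in heterozygotes (0.72, SE 0.25). All knockouts lay above all heterozygotes, and the female heterozygote 3 was next to the male heterozygote 1. Hba-x, an embryonic alpha-type globin gene, was at 15.4, 15.3 and 13.1 against 5.39, 7.83 and 12.3 (0.78, SE 0.23). Hba-a1, an adult alpha globin gene, was at 3801, 5322 and 4801 against 3757, 1988 and 3281 (0.66, SE 0.23). At these genes too the groups did not overlap, with knockout 1 close to the highest heterozygote at Hba-a1. Slc4a1, the anion exchanger gene of the red cell membrane, followed the same order at 3.09, 3.37 and 3.08 against 2.16, 1.99 and 2.14 FPKM, as did Hbb-bh1 from at most 14 implied fragments. Hbb-y, an embryonic beta-type globin gene, overlapped at 26.7, 47.4 and 17.7 against 9.41, 13.2 and 18.8 FPKM. Wild type means were 35.9 FPKM at Alas2, 12.9 at Hba-x and 4415 at Hba-a1. The knockout means there were 37.1, 14.6 and 4641, and the heterozygote means 22.3, 8.50 and 3009. At these genes the wild type mean was thus nearer to the knockout mean, and the heterozygotes were the low group.

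Hba-a2 was at 39.98, 252 and 341 FPKM in knockouts and at 416, 361 and 0.000376 in heterozygotes. Its mean FPKM was lower in knockouts (211 against 259), and it counts as higher on the log2 scale through heterozygote 3 alone. Its loci coincide with those of Hba-a1 within a few bases, so the 2 genes cannot be read apart. The lack of overlap at Hba-a1 alone is therefore uncertain. FPKM summed over all listed erythroid genes, tested or not, was 5202, 7418 and 6563 in knockouts and 5941, 3131 and 4657 in heterozygotes. By that sum the groups overlapped, with heterozygote 1 above knockout 1. Leaving out any 1 of the 6 libraries kept 10 to 12 of the 12 erythroid members higher in knockouts, with list medians of 0.41 to 0.54. The number under an unadjusted p of 0.05 was less steady, at 1 without knockout 2, 2 without heterozygote 2, 3 without knockout 3 or heterozygote 1 and 5 without knockout 1 or heterozygote 3. In the female libraries alone 12 of 12 were higher (median 0.37). That fit holds heterozygote 3 as its only heterozygote, the library with the lowest erythroid list mean (-0.69). With sex as a covariate 12 of 12 were higher (median 0.55) and 2 were under an unadjusted p of 0.05. The difference at Hba-x was 0.23 in females alone and 0.35 with the covariate. The share of blood in the dissected tissue was not measured, and its part in the result was not tested.

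GATA factors bind the erythroid genes at the motif AGATAA, which was searched on both strands in the RefSeq promoters (GRCm38.p6, 250 bases before to 50 after the start). Of the 12 tested erythroid genes 6 had a promoter in the table, and 1 of these, Alas2, held the motif, against 3672 of 32851 promoters overall (11.2%). The Alas2 promoter is shown because it holds the motif and the gene's groups did not overlap. It is given as the 250 bases before its start (chrX:150547167-150547416, plus strand, GRCm38.p6), with the motif in capitals as it reads on the other strand:
Alas2: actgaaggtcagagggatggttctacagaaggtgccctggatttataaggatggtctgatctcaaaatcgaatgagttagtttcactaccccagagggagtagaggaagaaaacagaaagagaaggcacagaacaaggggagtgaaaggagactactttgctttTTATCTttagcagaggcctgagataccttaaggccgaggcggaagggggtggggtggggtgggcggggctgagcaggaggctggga

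**Figure D5:**
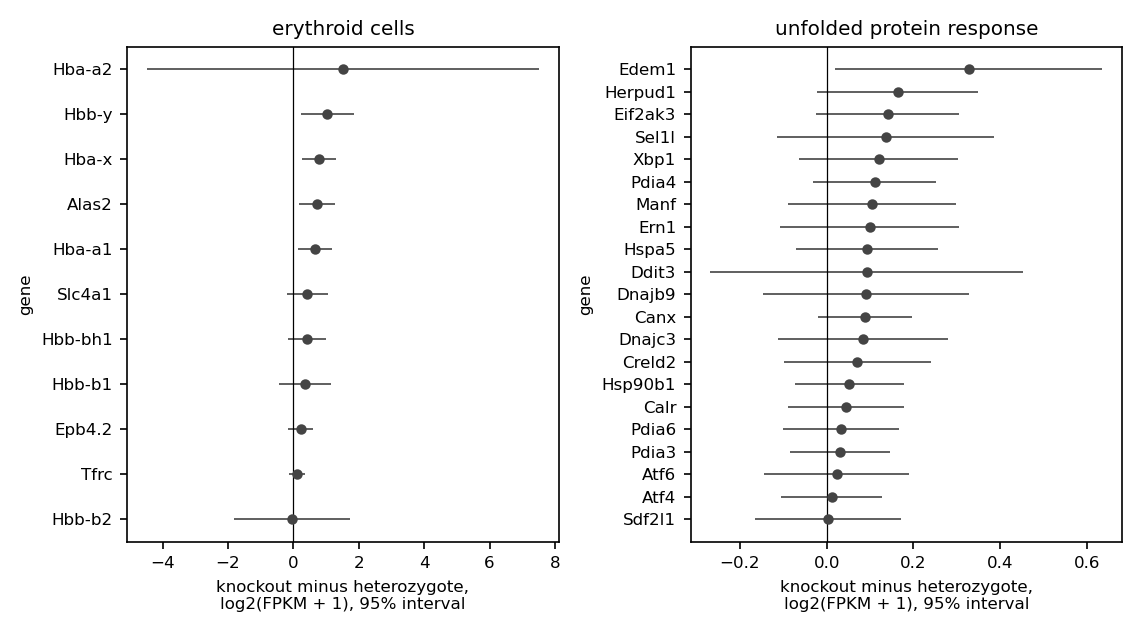
Knockout minus heterozygote difference in log2(FPKM + 1) of 11 of the 12 tested erythroid genes (left) and of each unfolded protein response gene (right), with the 95% interval from limma as a line. Of the 11 erythroid genes shown 10 lie above 0, with the interval of Hba-a2 far wider than the rest, and all 21 unfolded protein response genes lie above 0, up to 0.33 at Edem1.

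Genes of the unfolded protein response, which raises the folding capacity of the endoplasmic reticulum and is active in acinar cells with their load of secreted enzymes, had a higher mean in knockouts at 21 of 21, against 44.7% of all genes. The differences were small, from 0.00 to 0.33 with a median of 0.09, and 0 were called. Edem1, which helps clear misfolded glycoproteins, was at 73.7, 105 and 93.1 FPKM in knockouts and at 63.6, 81.4 and 70.0 in heterozygotes (0.33, SE 0.14). It was the 1 member of 21 under an unadjusted p of 0.05, against 2.18% of all genes. Canx, the chaperone calnexin, was the 1 member whose groups did not overlap, at 183, 187 and 178 against 176, 173 and 166 (0.09, SE 0.05). A share of 5.88% of all genes had groups without overlap, so 1 of 21 is near the background. Hspa5, the chaperone BiP, was at 819, 926 and 787 against 772, 837 and 762 (0.09, SE 0.07), and Herpud1 at 125, 162 and 139 against 123, 128 and 127 (0.16, SE 0.08). Calr, the chaperone calreticulin, had means of 1145 ± 57.1 and 1110 ± 18.1 FPKM. The list mean was 0.16 in knockout 2 and between -0.08 and 0.00 in the other 5 libraries. Without knockout 2 the count was 13 of 21 higher with a median of 0.02, without heterozygote 1 it was 17 and in females alone 18. Knockout 2 was also the library with the highest acinar list mean, and the part of acinar RNA in this count was not tested.

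The endoplasmic reticulum stress element, CCAAT and CCACG with 9 free bases between them, is the motif through which ATF6 and XBP1 act on chaperone genes. It was found on either strand in 7 of the 19 unfolded protein response genes that had a promoter in the RefSeq table (Hspa5, Calr, Hsp90b1, Canx, Pdia6, Dnajc3 and Creld2), against 39 of 32851 promoters overall (0.119%). Canx is shown as the member without overlap and Hspa5 as the best known target, each as the 250 bases before its start, 5′ to 3′ on the gene's strand, with the motif in capitals. Canx lies at chr11:50325674-50325923 (minus strand) and Hspa5 at chr2:34771840-34772089 (plus strand, GRCm38.p6):
Canx: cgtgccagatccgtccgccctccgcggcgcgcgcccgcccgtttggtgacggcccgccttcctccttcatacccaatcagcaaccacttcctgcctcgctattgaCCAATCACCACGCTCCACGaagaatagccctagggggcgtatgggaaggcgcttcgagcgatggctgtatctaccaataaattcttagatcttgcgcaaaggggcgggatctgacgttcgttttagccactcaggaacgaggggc
Hspa5: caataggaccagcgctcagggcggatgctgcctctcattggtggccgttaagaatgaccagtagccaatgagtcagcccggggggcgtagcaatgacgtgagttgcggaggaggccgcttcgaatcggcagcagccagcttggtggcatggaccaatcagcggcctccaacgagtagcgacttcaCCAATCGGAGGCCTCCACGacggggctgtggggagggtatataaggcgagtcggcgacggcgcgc
In these data the 7 genes with the motif had differences of 0.03 to 0.09.

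Cell cycle genes were close to even, with 17 of 32 higher and 15 lower in knockouts and a median of 0.00. Pcna, the replication clamp gene, was at 119, 111 and 147 FPKM against 140, 141 and 135 (-0.15, SE 0.10), and Cdk4 had means of 488 ± 22.5 and 496 ± 12.4. Hypoxia and glycolysis genes were 9 of 22 higher (median -0.01), led by Ndrg1 at 94.6, 125 and 115 against 104, 91.8 and 96.3. Immediate early and heat shock genes were 6 of 17 higher (median -0.04), with Jund at 57.1 ± 2.88 and 55.9 ± 4.36. Imprinted genes were 6 of 21 higher (median -0.07). Among them Nnat was at 260, 104 and 103 FPKM against 218, 175 and 173 (-0.41, SE 0.32) and Meg3 at 223, 117 and 158 against 189, 184 and 201, while H19 had means of 3326 ± 457 and 3061 ± 196. Knockout 1 was the highest knockout library at Nnat and Meg3 and the lowest at H19. In these 4 lists 0 genes were called and 0 were under an unadjusted p of 0.05.

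Markers of organs beside the pancreas were mixed. Gut and stomach genes had 6 of 19 tested, 3 higher and 3 lower, and the gut regulators Cdx1 and Cdx2 were at 0.248 FPKM or less in all 6 libraries. Tff2, a trefoil peptide gene, was at 30.7, 41.5 and 37.9 FPKM in knockouts and at 28.0, 48.1 and 37.1 in heterozygotes. Liver genes were 5 higher and 5 lower of 10 tested, with Fgb, a fibrinogen chain gene, at 1.18, 1.42 and 1.36 against 0.805, 1.17 and 0.812 (0.27, SE 0.11), without overlap. The liver list also holds Cyp2c70, described above, at -1.49 (SE 0.73), and Alb was at 5.04 FPKM or less. Spleen genes were 3 higher and 3 lower of 6, with Ccl21a (-1.03, SE 0.24) as the 1 member without overlap, against 5.88% of all genes.

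X-linked genes that escape inactivation followed the sex of the embryos only in part. Kdm6a, a histone demethylase gene, was at 11.5, 13.4 and 13.6 FPKM in knockouts, at 8.38 and 8.47 in the male heterozygotes and at 10.9 in the female one. Ddx3x was at 114, 121 and 117 against 102, 106 and 108, so the female heterozygote 3 was nearer to the male heterozygotes than to the knockouts. Xist was at 35.0, 37.3 and 40.2 FPKM in knockouts and at 0.0231, 0.0165 and 40.3 in heterozygotes, and its difference of 3.46 became -0.10 in females alone. Of 442 tested genes on the X chromosome, 8 were under an unadjusted p of 0.05 (1.81%), against 277 of the 12610 other genes (2.2%).

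Around the targeted locus, 0 genes were called within 10 Mb. Of 13 symbols within 1 Mb of Nkx2-2, 6 were tested, with 1 higher and 5 lower in knockouts and 0 under an unadjusted p of 0.05. Foxa2, a forkhead gene of the endoderm (chromosome 2, 147868614 to 147872705), was at 32.8, 35.5 and 35.2 FPKM in knockouts and at 32.5, 32.2 and 32.2 in heterozygotes, without overlap (0.09, SE 0.05). Plk1s1, a centrosome protein gene (146681625 to 146795825), was at 15.3, 15.7 and 14.8 against 16.1, 16.4 and 17.6, also without overlap (-0.12, SE 0.06). Insm1, a zinc finger factor gene of endocrine progenitors, was at 15.1, 9.86 and 9.71 against 10.7, 14.0 and 9.71 (0.00, SE 0.18). Xrn2, encoding a nuclear exonuclease, and Ralgapa2, encoding a GTPase activator, had means of 36.1 ± 4.74 and 36.6 ± 1.28, and of 2.57 ± 0.193 and 2.60 ± 0.264 FPKM. Within 5 Mb 52 genes were tested and 0 were under an unadjusted p of 0.05, and within 10 Mb 4 of 132 were, against 2.18% of all genes. Groups did not overlap at 2 higher and 2 lower genes within 5 Mb, and at 4 higher and 9 lower within 10 Mb. Over all genes the shares without overlap were 3.5% higher and 2.38% lower.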

How the data were processed

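Per the labels' protocols, TopHat 2.0.4 aligned reads to mm9 with up to 4 mismatches and 10 hits for each read. CASAVA 1.8.2, Cufflinks and DESeq are named in the submitters' processing notes. Neither the gene annotation nor strand use is stated in what was used here. The authors deposited FPKM with confidence bounds for 23699 loci in each library, per the file headers. Rows marked as failed for excess data were set missing, which removed 4 symbols, and loci of 248 symbols were summed. If the bounds reflect counting error, they give an implied fragment number per gene. Of genes under 500 such fragments, 73.83% to 74.69% came out whole within 0.05 in the 6 libraries.

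Tests used limma 3.58.1 in R 4.3.3 on log2(FPKM + 1), with an intensity trend, all 9 libraries in 1 fit, genotype as the only term and Benjamini-Hochberg adjustment over the 13052 tested genes. They were two-sided with a threshold of 0.05, and were tested on simulated data. The scale understates changes of low genes. Groups and replicate numbers come from the titles. Members and lists were chosen with earlier results of these data known. Named genes are the 6 higher and 6 lower with the smallest p, the 5 higher and 5 lower with the largest difference without overlap, 30 core pancreas and sex genes, the 2 smallest p and the highest mean of each of 24 lists, the 10 most variable genes and the genes within 1 Mb of Nkx2-2. Other members of the lists, and other genes named, were picked after their values were seen. Positions are 1-based. Of the erythroid list, 1 gene is counted in its list but not reported here.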

Additional observations from a re-analysis of the deposited data

How the results depend on the processing

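The count of called genes was 0 in the fits with only the 6 libraries, another pseudocount (0.1 FPKM), and a filter of 5 FPKM or none. It was also 0 with upper quartile or quantile scaling, array weights, voom, the sex covariate and single loci. Leaving out 1 library gave 0 to 4 calls, and 5 without both knockout 1 and heterozygote 1. The calls without single libraries were the 4 genes without knockout 1, Cyp2c70 without heterozygote 1 and Rps19 without heterozygote 2. At each of these genes, the library left out lay away from the rest of its group. Such calls are therefore no test of these genes. The count under an unadjusted p of 0.05 was 285, and 177 to 1182 without 1 library, 540 with no filter on level, 1676 with array weights and 852 without both knockout 1 and heterozygote 1. In the fit with the replicate number as a block it was 313, with 0 called. Same-numbered knockout and heterozygote libraries correlated in their deviations at 0.25, 0.28 and 0.04, and other-numbered ones at -0.34 to 0.13. Knockout 3 did not correlate best with its own number. The main fit did not take the numbers to pair the samples, and whether they do was not tested. Differences larger than their SE turned at Gcg (-0.049 without both libraries, and 0.031 to 0.312 without 1 library), Xist (-0.061 with the sex covariate and -0.10 in females), Pcna (0.034) and Hsph1 (-0.013) with array weights, and H19 (-0.054 with quantile scaling). Another 94 sign changes over all named genes and settings were at genes whose difference was below its SE. The cause was not tested for any of these. Array weights gave knockout 3 a weight of 5.78 against 0.448 to 1.21 for the other 5 libraries.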

Other observations

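The most variable genes over the 6 libraries, whatever their group, included short RNA genes that rest on very few fragments. Snord22, Snora65, Snora70 and Snora43, small nucleolar RNA genes, had 0 to 5 implied fragments in any library, and Mir686 had at most 2.34, so their FPKM of up to 897 are not levels that can be compared. Of 272 genes with a variance of 0.25 or more on the log2 scale, 114 were highest in heterozygote 1 and 47 in knockout 1, and 80 each were lowest in knockout 2 and in heterozygote 2.

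A few longer genes, chosen after their values were seen, moved between near absence and a clear level within both groups. Tmem186, a transmembrane protein gene (chromosome 16, 8633824 to 8637794), was at 0.434, 11.7 and 11.1 FPKM in knockouts, at 5.88, 0.362 and 5.13 in heterozygotes. Wild types had 5.81, 0.358 and 5.55 FPKM, so 1 library of each group was low. Rpl21, a ribosomal protein gene, was at 17.3, 35.2 and 2.77 FPKM in knockouts and at 2.79, 18.4 and 17.5 in heterozygotes, with 14.6 to 17.2 in wild type. Knockout 3 and heterozygote 1 were low there, and reads of its many near-identical copies may be shared.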
